A study of Mus musculus with 32 samples.

Results

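Ileal macrophages that grew from a monocyte graft were compared between day 8 and day 12 after transfer, with 4 bulk libraries per day, which are 8 of the 32 libraries of the series. The members were taken from the sample titles that name the ileum and the day. The recipients were [CD11c-DTR > WT] BM chimeras on the C57BL/6J strain, labelled as of the B6.FVB background with the transgene Tg[Itgax-DTR/GFP]57Lan/J, whose blood cells carry the diphtheria toxin (DTx) receptor under the CD11c (Itgax) promoter, so that DTx removes their CD11c-expressing cells. Both groups received 18 ng DTx per gram bodyweight on 2 days before transfer and 9 ng per gram every other day after it. The graft was Ly6C+ BM monocytes of Cx3cr1 GFP/+ mice with the CD45.1 allotype. The last injection was on day 7 for the cells taken on day 8 and on day 9 for those of day 12, so the harvests followed it by 1 and 3 days, and time after transfer and time after the last injection cannot be told apart. The labels give the sort as DAPI-CD45+CD11b+CD64+Ly6C-MHCII+ for both groups, while the study's text describes the sort of grafted cells by CD45.1 and GFP. MHCII, the product of H2-Ab1 and its partners, may thus itself have been a sort marker. The recipients were 7 to 10 weeks old when the chimeras were made. Their age at harvest and whether a library holds 1 mouse or a pool are not given in the sources used here, so p-values measure the spread between these libraries, which may be partly technical.

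Macrophages of the gut lamina propria are replaced from blood monocytes, which lose Ly6C and gain MHC class II, CD64 and CX3CR1 as they settle. They take up dying cells and bacteria, load peptides on class II molecules for T cells, and depend on IL-10 and TGF-beta signals for their tolerant state. TIM-4, encoded by Timd4, binds phosphatidylserine on dying cells and is known as a marker of long-lived resident macrophages, and H2-Ab1 encodes the beta chain of the class II molecule I-A.

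Between 1505235 and 3381891 reads were counted on genes per library. Values below are normalized reads, meaning reads per 10000000 mapped reads, in which a single read equals 1.48 to 3.76. The dates in the titles place 2 libraries of each day in the second transfer experiment, 2 libraries of day 8 and 1 of day 12 in the third, and 1 library of day 12 in the first. One day 8 library (replicate 2) carries the year before that of its partners, which was read as a slip of the year. Genes that define macrophages were, as a list, read in every library. Csf1r, Cx3cr1, Fcgr1, the C1q chains, Apoe and 18 further members of a macrophage list summed to 194417, 229708, 142204 and 56331 normalized reads on day 8 and to 384150, 92372, 127813 and 169366 on day 12. Apoe alone gave 102755, 111431, 73324 and 31537 of these on day 8 and 206046, 38269, 81292 and 109226 on day 12. The sum, and the values set against it below, thus lean on this gene. Replicate 4 of day 8 held the lowest sum and replicate 1 of day 12 the highest, and the days overlapped. Fewer cells of a type and less RNA per cell cannot be told apart in such bulk libraries. RNA of other cells was also read in all 8. Summed reads of 23 epithelial genes ranged from 43304 to 76875 on day 8 and from 35993 to 78161 on day 12, and those of 11 B and plasma cell genes, most of them from the joining chain gene Jchain, from 17114 to 90376 and from 21596 to 143402. The plot of summed reads shows these spreads, and because replicate 4 of day 8 and replicate 1 of day 12 stand apart, the main values are also given without this pair, a choice made after the data were seen.

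**Figure D1:**
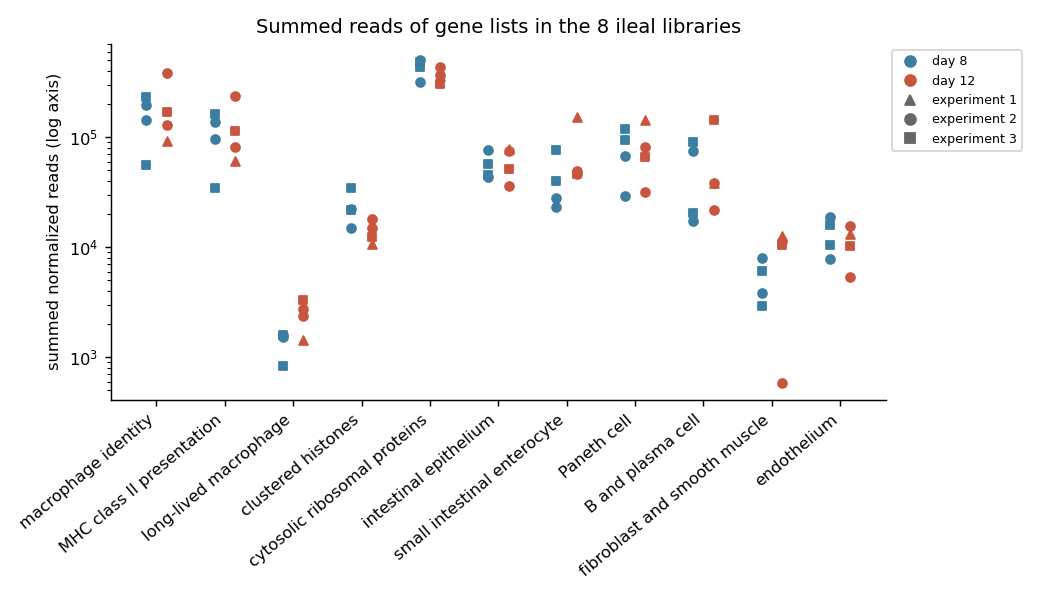
Summed normalized reads (vertical log axis) of 11 gene lists in the 8 ileal libraries, with day 8 in blue, day 12 in red and the marker shape for the transfer experiment. Macrophage and MHC class II sums spread widely within each day, from 56331 to 229708 and from 92372 to 384150 for the macrophage list, and the days overlap in all 11 lists.

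No gene passed between day 8 and day 12. Of 11842 genes tested with the quasi-likelihood test of edgeR, 0 (0%) had a Benjamini-Hochberg adjusted p under 0.05, and the smallest adjusted p was 0.738. At an unadjusted p under 0.05, 447 genes (3.77%) were higher and 349 (2.95%) lower on day 12. DESeq2 likewise called 0 genes and gave 484 and 425 at an unadjusted p under 0.05, limma called 0 and gave 645 and 113 with a pseudocount of 1, and edgeR with scaling to library totals called 0 and gave 544 and 156. The balance of higher and lower genes thus moved with the scaling. In the same fit, 85 genes passed as higher and 523 as lower from day 4 to day 8 in the ileum, a comparison that shares the day 8 libraries.

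The differences were small and their errors large. The median absolute log2 fold change was 0.25, the median standard error 0.33, and 404 genes (3.41%) differed by over 2-fold, 271 of them higher and 133 lower on day 12. For 6252 genes (52.8%) the 95% interval left out a 2-fold difference in either direction, so that for the others a difference of that size was not excluded at this number of libraries. In normalized reads, the 4 libraries of each day did not overlap for 254 genes (2.14%) higher on day 12 and for 62 genes (0.524%) lower on day 12. Where the group with more reads averaged 200 normalized reads or more, 115 of these genes were higher and 19 lower. Normalized reads are scaled to the mapped total and not by the TMM factors that the edgeR test used. Replicate 4 of day 8 had the lowest of these factors (0.791). Overlap on the TMM scale was not counted, so the balance of 254 and 62 may depend on the scaling.

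Libraries of different days lay no farther apart than libraries of the same day. Over log2(normalized reads + 50) of all genes tested, the 16 pairs from different days were a median of 66.1 apart (range 43.1 to 100), and the 12 pairs within a day 65.8 (43.2 to 93). Replicate 4 of day 8 was 70.9 to 100 from every other library. Without that library and replicate 1 of day 12, the median was 53.3 for 9 pairs from different days and 51.1 for 6 pairs within a day.

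**Figure D2:**
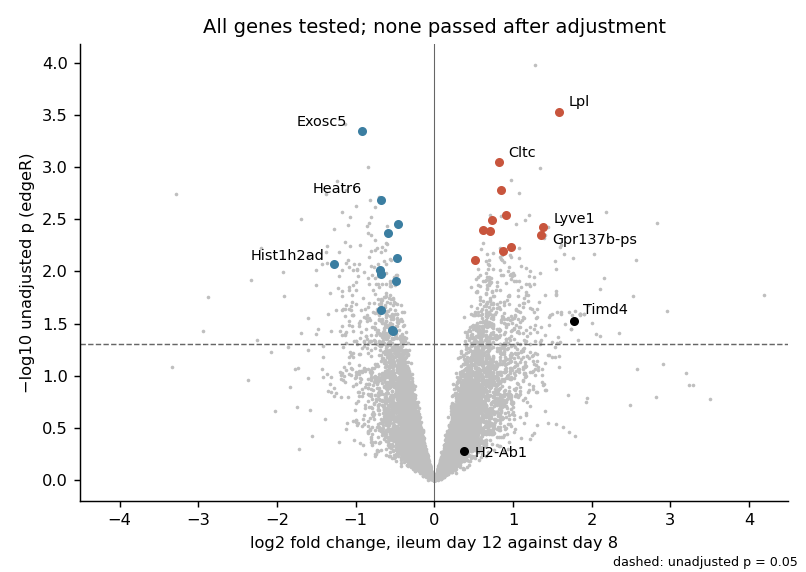
Log2 fold change of ileum day 12 against day 8 (horizontal) and −log10 of the unadjusted edgeR p (vertical) for the 11842 genes tested, with the genes named by rule as higher on day 12 in red, as lower in blue, and Timd4 and H2-Ab1 in black. The dashed line is an unadjusted p of 0.05, which 447 genes passed to the right and 349 to the left, and 0 genes passed after adjustment.

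Timd4 had few reads on either day and more of them on day 12. The gene (NM_178759, mm9 chr11:46624301-46657835, plus strand, reads counted over exons) had 46.1, 43.8, 43.5 and 6.8 normalized reads in the 4 day 8 libraries, from 17, 13, 13 and 2 reads. On day 12 it had 263, 75.2, 31.2 and 102, from 116, 20, 12 and 69 reads. Of the day 12 libraries 3 lay above every day 8 library, and replicate 3 lay among them. The log2 fold change was 1.77 (SE 0.76, 95% interval 0.19 to 3.34, edgeR adjusted p = 0.738), and a two-sided exact permutation test of the mean log2(normalized reads + 50) gave p = 0.114, where 4 against 4 libraries can reach 0.0286 at best. Replicate 1 of day 12 carried much of the size, since the value was 0.97 without it and 0.71 without it and replicate 4 of day 8. Set against the macrophage list in the same library, a scaling also chosen after the data were seen, Timd4 had 0.237, 0.191, 0.306 and 0.121 reads per 1000 on day 8 and 0.684, 0.814, 0.244 and 0.602 on day 12, a log2 difference of 1.40 (two-sided exact permutation p = 0.0571). Only replicate 3 of day 12 overlapped day 8 on this scale too. In experiment 2 the difference in mean log2(normalized reads + 50) was 0.75, from 46.1 and 43.5 on day 8 and 263 and 31.2 on day 12. Its direction there rested on replicate 1 of day 12. In experiment 3 the difference was 1.06, from a single day 12 library (102) against 43.8 and 6.8, the lower being replicate 4 of day 8.

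Around Timd4, the genes of a list of long-lived macrophages leaned the same way without passing. Of 14 genes 9 reached the filter on low counts and 0 passed, and 3 were higher at an unadjusted p under 0.05 (Timd4, C2 and Lyve1) and 0 lower, beside 3.77% and 2.95% of all genes tested. The median log2 fold change was 0.88, against 0.03 for all genes tested, and 0.56 without the pair of libraries that stand apart. Lyve1, a hyaluronan receptor of lymphatic endothelium and of some resident macrophages, was at 133, 74.2, 97 and 112 on day 8 and at 138, 173, 590 and 284 normalized reads on day 12. Its days did not overlap, by 133 against 138, and its log2 fold change was 1.38 (SE 0.42, edgeR adjusted p = 0.738). Per 1000 reads of the macrophage list the days of Lyve1 overlapped, with 0.683, 0.323, 0.682 and 1.99 on day 8. On day 12 this scale gave 0.36, 1.87, 4.62 and 1.68 (log2 difference 1.03, two-sided exact permutation p = 0.314). The other 11 genes of an endothelial list that also holds Lyve1 all had a log2 fold change below 0, and the list summed to 7724 to 18990 on day 8 and 5309 to 15678 on day 12. C2, a complement protease, had 6.8 to 38 normalized reads on day 8 and 11.3, 82.7, 93.6 and 142 on day 12. Its lowest day 12 library lay below 3 of the day 8 libraries, and it was named after its values were seen. Mrc1, the mannose receptor, ranged from 129 to 563 on day 8 and from 316 to 1084 on day 12, and Cd4, which long-lived gut macrophages carry, from 156 to 371 and from 150 to 663. The list holds genes, Timd4 and C2 among them, that the study took from an earlier report on long-lived gut macrophages and showed in these libraries. It was chosen with earlier results of these data known, so its direction is no independent evidence.

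H2-Ab1 did not separate the days. The gene (NM_207105, mm9 chr17:34400172-34406363, plus strand) had 39772, 29318, 23679 and 7433 normalized reads on day 8 and 60987, 11565, 22237 and 32419 on day 12. The lowest value was on day 8 and the highest on day 12, and the middle ones interleaved. The log2 fold change was 0.38 (SE 0.60, 95% interval -0.86 to 1.62, edgeR adjusted p = 0.935), with a two-sided exact permutation p = 0.657, and the interval holds a 2-fold difference upward. The direction rested on replicate 1 of day 12, without which the value was -0.18. Per 1000 reads of the macrophage list H2-Ab1 held 125 to 205 in all 8 libraries, a log2 difference of 0.05 (exact permutation p = 0.857).

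The other genes of class II presentation did not separate the days either. Of 14 genes 11 were tested, 0 passed, and 0 were higher or lower at an unadjusted p under 0.05. Their median log2 fold change was 0.07. H2-Aa, the alpha chain partner of H2-Ab1, ranged from 7685 to 32645 on day 8 and from 16451 to 60870 on day 12, and Cd74, the invariant chain that guards the empty groove, from 7640 to 32150 and from 11091 to 42977. Relative to the macrophage list the summed class II reads were narrow, at 712, 701, 678 and 608 per 1000 on day 8 and 623, 663, 633 and 670 on day 12 (log2 difference -0.06, two-sided exact permutation p = 0.343). Without the pair of libraries that stand apart the median was -0.76, and that of the macrophage list itself moved from 0.31 to -0.60.

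**Figure D3:**
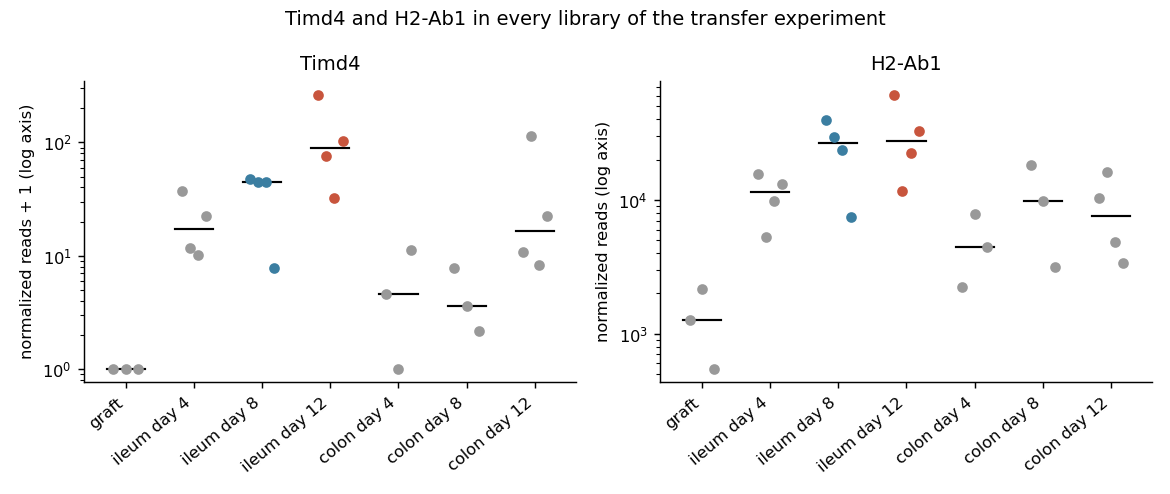
Normalized reads of Timd4 (left, with 1 added so that zeros can be drawn) and H2-Ab1 (right) on log axes, with a point for each library and a bar at the group median. Ileum day 8 (blue) and day 12 (red) have medians of 43.7 and 88.6 for Timd4 and of 26499 and 27328 for H2-Ab1, and grey points are the graft and the other groups.

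Across the time course, both marker genes stood higher in the ileal than in the colonic libraries of the same day by their medians. Timd4 had medians of 16, 43.7 and 88.6 normalized reads on days 4, 8 and 12 in ileum and of 3.58, 2.61 and 15.6 in colon. The 4 day 4 libraries of the ileum (9.22 to 36.3) overlapped day 8, and day 8 overlapped day 12. H2-Ab1 had medians of 11449, 26499 and 27328 in ileum and of 4405, 9812 and 7523 in colon. Its neighbouring days overlapped in both segments.

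Since fewer than 12 genes passed in each direction, 12 genes were named for each direction, those of smallest unadjusted p whose days did not overlap and whose group with more reads averaged 200 normalized reads or more. None of these 24 passed, all had an adjusted p of 0.738, and their separation was part of the choice. It was judged on normalized reads, and narrow gaps may not hold under the TMM scaling of the test. They are described by their values.

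Among the 12 higher genes, Lpl came first. It encodes lipoprotein lipase, which frees fatty acids from triglycerides. It had 157, 152, 124 and 20.4 normalized reads on day 8 and 303, 507, 185 and 387 on day 12, a log2 fold change of 1.59 (SE 0.37). The days were divided by 157 against 185, and replicate 4 of day 8 was far below the others. From day 4 to day 8, Lpl had fallen by 1.36 on the log2 scale (edgeR adjusted p = 0.0392). That comparison shares the day 8 libraries, and its days come partly from different experiments. The difference between the days was 0.60 in experiment 2 and 1.88 in experiment 3 on the log2(normalized reads + 50) scale.

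Cltc, the clathrin heavy chain that coats endocytic vesicles, had 702, 438, 586 and 241 on day 8 and 856, 1045, 816 and 872 on day 12 (log2 fold change 0.82, SE 0.22). Rab5a, a small GTPase of early endosomes, had 171, 158, 167 and 126 on day 8 and 265, 229, 229 and 216 on day 12 (0.52, SE 0.18). Both were even among the day 12 libraries, and Cltc was lowest in replicate 4 of day 8. Arl5a, a GTPase of the Golgi, ranged from 84.3 to 155 and from 179 to 276, with a log2 fold change of 0.87. Ogt, the enzyme that adds O-GlcNAc to nuclear and cytosolic proteins, had 144, 169, 191 and 88.4 on day 8 and 245, 353, 294 and 228 on day 12. Its log2 fold change was 0.85 (SE 0.24).

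Parp3, an ADP-ribosyltransferase of DNA repair, ranged from 71.4 to 175 on day 8 and from 179 to 312 on day 12. Nmd3, an adaptor for export of the large ribosomal subunit, ranged from 78.2 to 155 and from 163 to 244, and Saraf, a brake on store-operated calcium entry, from 248 to 708 and from 736 to 868. Gpbp1 ranged from 139 to 261 and from 317 to 413, and Smim15 from 64.6 to 174 and from 240 to 323. Gpr137b-ps, listed as a non-coding RNA, had 141, 185, 157 and 23.8 on day 8 and 634, 248, 208 and 204 on day 12. Its log2 fold change of 1.36 was 0.46 without replicate 4 of day 8 and replicate 1 of day 12, and a parent copy may share its reads. Lyve1 was the remaining gene. In 10 of these 12 genes the lowest of the 8 libraries was replicate 4 of day 8, which also had the lowest macrophage reads, and the part of its composition in them was not tested.

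Lipt2, the gene of smallest unadjusted p of all and a lipoyltransferase of mitochondria, lay under the level set for naming and was named after its values were seen. It had 29.8, 27, 33.5 and 17 normalized reads on day 8 and 61.1, 67.7, 83.2 and 63.6 on day 12. The days did not overlap (log2 fold change 1.28, SE 0.28, unadjusted p 1.04e-04, edgeR adjusted p = 0.738). Without the pair of libraries that stand apart its log2 fold change was 1.24.

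**Figure D4:**
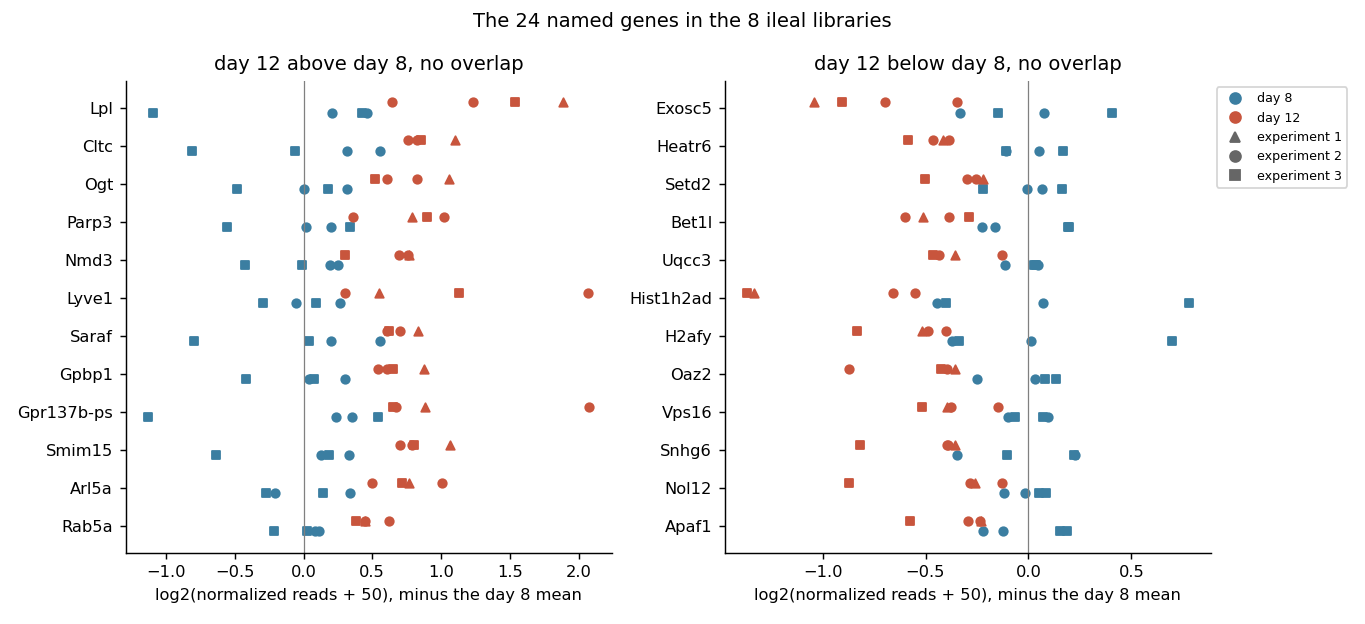
The 24 named genes in the 8 ileal libraries as log2(normalized reads + 50) minus the mean of day 8 (horizontal axes), with day 8 in blue, day 12 in red and the marker shape for the transfer experiment. The left panel holds the 12 genes higher on day 12 and the right panel the 12 lower, chosen for having no overlap, and none passed after adjustment (all adjusted p = 0.738).

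Among the 12 lower genes, Exosc5, a subunit of the RNA exosome, came first. It had 333, 587, 458 and 384 normalized reads on day 8 and 328, 184, 247 and 207 on day 12 (log2 fold change -0.92, SE 0.23). The days were divided by 333 against 328. From day 4 to day 8 it had risen by a log2 fold change of 1.05 (edgeR adjusted p = 0.0134), again with the day 8 libraries shared and the experiments partly different.

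Hist1h2ad, a clustered H2A gene, had 564, 583, 827 and 1383 on day 8 and 480, 282, 520 and 274 on day 12 (log2 fold change -1.28, SE 0.45). H2afy, the histone variant macroH2A1, had 1179, 2525, 1549 and 1207 on day 8 and 1152, 1060, 1084 and 843 on day 12 (-0.69, SE 0.25). Setd2, the methyltransferase of histone H3 lysine 36, had 287, 330, 305 and 241 on day 8 and 226, 241, 234 and 189 on day 12. H2afy was highest in replicate 2 of day 8, and the days of Setd2 met at 241.

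The other 8 were lower by small steps. Heatr6 ranged from 184 to 233 on day 8 and from 118 to 143 on day 12, with a log2 fold change of -0.68. Bet1l, a SNARE of the Golgi, ranged from 566 to 775 and from 426 to 540, Vps16, a subunit of the complexes that tether endosomes and lysosomes, from 399 to 465 and from 287 to 385, and Uqcc3, an assembly factor of respiratory complex III, from 450 to 509 and from 342 to 445. Oaz2, an antizyme that curbs polyamine synthesis, ranged from 365 to 492 and from 220 to 335. Snhg6, a host of small nucleolar RNA, ranged from 371 to 576 and from 253 to 368, and Nol12, a nucleolar protein, from 274 to 323 and from 142 to 272. Apaf1, the scaffold of the apoptosome, ranged from 201 to 283 and from 146 to 199. All 12 kept a log2 fold change below 0 in experiments 2 and 3 taken alone, and all 12 higher genes one above 0, which the choice of genes without overlap fixes.

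The clustered histone genes formed the list with the largest number of low p-values. These genes encode the histones that package new DNA in S phase, and most of their transcripts end in a stem-loop and carry no poly(A) tail, while the libraries were made from poly(A) RNA. The promoter of Hist1h2ad, the member among the genes named above, is shown because CCAAT boxes are a known element of histone gene promoters. It is the stretch of 250 bases before the RefSeq start on GRCm38.p6, written 5′ to 3′ along the gene, with every CCAAT or its reverse complement ATTGG in capitals.
Hist1h2ad (chr13:23574131-23574380, plus strand): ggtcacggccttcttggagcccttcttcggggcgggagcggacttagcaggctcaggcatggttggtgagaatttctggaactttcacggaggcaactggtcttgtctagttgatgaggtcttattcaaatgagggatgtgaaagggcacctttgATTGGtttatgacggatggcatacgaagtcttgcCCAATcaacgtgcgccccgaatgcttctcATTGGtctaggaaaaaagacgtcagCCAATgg
Hist1h2ad holds 4 such matches. RefSeq promoters were found for 62 of the 68 listed histone genes, and 51 of these (82.3%) held at least 1 match, against 34.5% of 27025 promoters of the same length. The stretches of Hist1h2ao and Hist1h2ap hold a long run of the same bases, so the histone promoters are not all separate sequences. Whether the stretch of Hist1h2ad also serves or overlaps a neighbouring gene was not examined. A match is a description of the letters and no measurement of binding.

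Of the 68 histone genes 64 were tested and 0 passed. At an unadjusted p under 0.05, 21 (32.8%) were lower and 0 higher on day 12, beside 2.95% and 3.77% of all genes. The median log2 fold change was -0.64, and 59 of the 64 were below 0. The summed reads were 14872, 21575, 22361 and 34276 on day 8 and 14899, 10576, 17885 and 12268 on day 12. The lowest day 8 library lay among those of day 12, and replicate 4 of day 8 was the highest of all 8. Hist1h2ao ranged from 1887 to 5407 on day 8 and from 1224 to 2415 on day 12, and Hist1h2ap from 1873 to 5200 and from 1215 to 2402. The intervals counted for these copies overlap (mm9 chr13:21902236-21902787 and chr13:21902336-21902787, both on the minus strand, where RefSeq has Hist1h2ao on the plus strand), so most of their reads are the same reads counted for both. Of the listed histone genes 4 pairs overlap in this way, and 2 of the pairs (Hist1h2ao with Hist1h2ap and Hist2h2aa1 with Hist2h2aa2) lie among the 21, so reads of single histone genes are uncertain. Days did not overlap for 6 members (Hist1h1b, Hist1h2ad, Hist1h3e, Hist1h3g, Hist1h3h and Hist1h3i), all lower on day 12, beside 0.524% of all genes.

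These counts depended on single libraries. Without replicate 4 of day 8 only 4 of the 64 histone genes were lower at an unadjusted p under 0.05, and without replicate 2 of day 12 there were 10. Without the pair that stand apart there were 3 and the median was -0.38. In the 8 ileal libraries alone there were 17, with experiment as a block in those 8 there was 1, and in experiment 2 alone there were 0. In replicate 4 of day 8 the histones came to 608 reads per 1000 of the macrophage list and in the other 7 libraries to 38.8 to 157, and the part of its low macrophage content in the histone difference was not tested.

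Genes of proliferation and of ribosomes were lower by the same kind of count. Of 32 proliferation genes tested, 0 passed, 6 (18.8%) were lower at an unadjusted p under 0.05 (Cdk1, Cenpa, Hmgb2, Nusap1, Plk1 and Stmn1) and 0 higher, beside 2.95% and 3.77% of all genes, and the median was -0.49. Stmn1, a protein that frees tubulin in mitosis, had 366, 944, 1061 and 673 on day 8 and 489, 564, 614 and 278 on day 12, with replicate 1 of day 8 below 3 of the day 12 libraries. Hmgb2, a chromatin protein of dividing cells, had 263, 593, 452 and 670 on day 8 and 272, 368, 312 and 185 on day 12. Its lowest day 8 library lay among those of day 12, and both genes were named after their values were seen. Without the pair of libraries that stand apart, 5 proliferation genes were lower and the median was -0.41. With experiment as a block in the 8 ileal libraries there were also 5. Only 2 were lower with scaling to library totals, 2 with limma at a pseudocount of 1, and 1 in experiment 2 alone. Of 79 ribosomal protein genes 0 passed, 17 (21.5%) were lower and 0 higher, beside the same shares of all genes, with a median of -0.29. Only 1 was lower without replicate 4 of day 8, 1 without the pair, 1 with the 8 ileal libraries alone, and 0 with experiment as a block in those 8 or in experiment 2 alone. The ribosomal list summed to 315759 to 501589 on day 8 and 303823 to 432233 on day 12, and Rplp1, a stalk protein of the large subunit, ranged from 16797 to 36057 and from 18485 to 24333.

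The genes of oxidative phosphorylation showed little. Of 76 tested 0 passed, and the median was -0.09. At an unadjusted p under 0.05, 1 (Uqcrb) was higher and 1 (Ndufa8) lower, beside 3.77% and 2.95% of all genes. The sums of the list, 120694 to 169534 on day 8 and 126813 to 172047 on day 12, nearly coincided.

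The interferon-stimulated genes did not pass. Of 26 tested 0 passed, 6 were higher at an unadjusted p under 0.05 (Gbp2, Ifi203, Ifit2, Ifit3, Mx1 and Rsad2) and 0 lower, beside 3.77% and 2.95% of all genes, with a median of 0.69. Gbp2, a GTPase that attacks vacuoles of pathogens, had 358, 209, 147 and 163 on day 8 and 765, 793, 377 and 299 on day 12. Ifit3, an antiviral RNA-binding cofactor, had 54.2, 64.1, 56.9 and 10.2 on day 8 and 145, 71.4, 57.2 and 96.1 on day 12. In each gene 1 library of each day lay within the range of the other day, and both were named after their values were seen. Without the pair of libraries that stand apart 0 of the 26 were higher and the median was -0.15, and without replicate 1 of day 12 alone 1 was.

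Inflammatory and signalling genes did not separate the days. Of 16 inflammatory genes tested 0 passed and 1 (Cxcl9) was higher at an unadjusted p under 0.05, beside 3.77% of all genes, and the median of 0.68 was -0.15 without the pair. Il1b, the cytokine IL-1 beta, ranged from 1292 to 5734 on day 8 and from 2738 to 11148 on day 12, with its highest value in replicate 1 of day 12. Of 13 genes of the IL-10 axis 0 passed and the median was 0.13, with Stat3, which carries the IL-10 receptor signal, at 783 to 1244 and 682 to 1039. Of 14 genes of the TGF-beta axis 0 were higher or lower and the median was 0.17, and Tgfbr1, a receptor chain, ranged from 173 to 924 and from 382 to 1012.

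Genes of uptake, lipid handling and degradation did not pass, and their medians, except that of efferocytosis, were lower without the pair of libraries that stand apart. Of 22 lipid genes 0 passed, 2 (Lpl and Lipa) were higher at an unadjusted p under 0.05, beside 3.77% of all genes, and the median of 0.37 was 0.08 without the pair. Lipa, the acid lipase of lysosomes, had 485, 512, 224 and 156 on day 8 and 1003, 425, 330 and 512 on day 12, and its log2 fold change of 0.73 was 0.09 without the pair. Lipa was named after its values were seen and its days overlapped. Of 22 lysosomal genes 2 (Laptm4a and Lipa) were higher, and the median of 0.34 was -0.39 without the pair. Of 15 efferocytosis genes 2 (Timd4 and Tyro3) were higher, with a median of 0.10 and of 0.11 without the pair. Of 14 complement genes 1 (C2) was higher, and the median of 0.55 was 0.17 without the pair. C1qa, a chain of C1q, ranged from 4935 to 42182 and from 12651 to 34542.

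Identity and stress genes did not pass. Of 24 macrophage identity genes tested 0 passed and 1, the transcription factor Maf, was higher at an unadjusted p under 0.05, beside 3.77% of all genes, with 344, 344, 308 and 116 on day 8 and 426, 331, 465 and 906 on day 12. Maf was named after its values were seen, and a single day 12 library lay within the range of day 8. Of 17 monocyte genes 1 (F13a1) was higher and the median was 0.31. Of 15 pan-leukocyte genes 1 (Cd53) was higher, of 22 immediate early genes 1 (Egr2), and of 13 heat shock genes 3 (Dnaja1, Hsp90aa1 and Hspa5), with 0 lower in each.

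**Figure D5:**
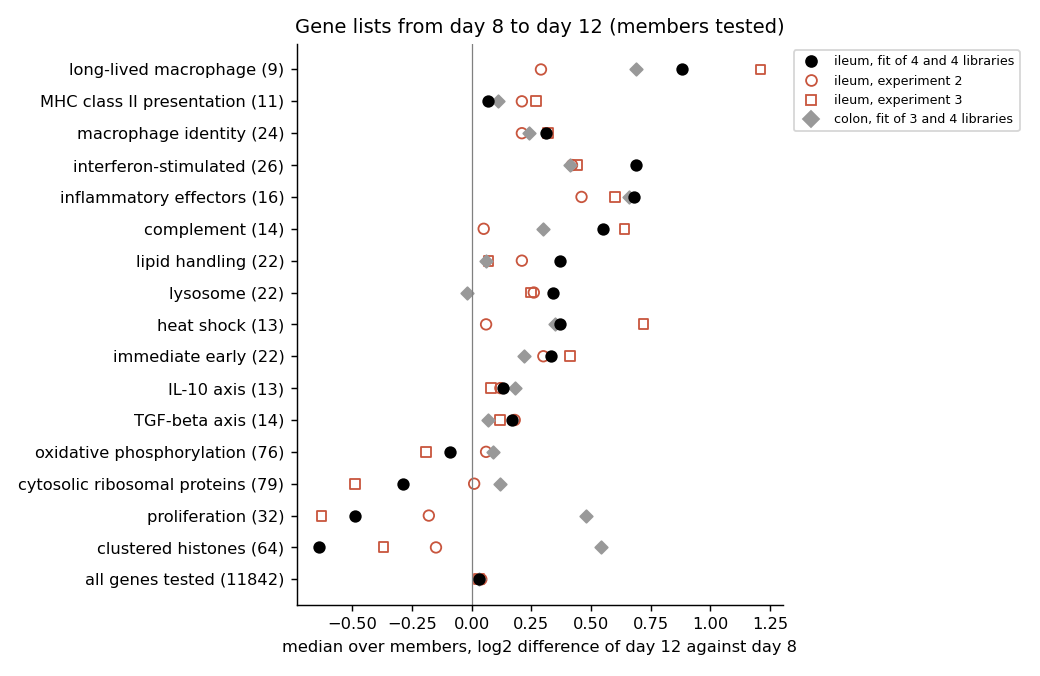
Median difference of day 12 against day 8 (log2, horizontal) over the members of 16 gene lists and of all genes tested, with the number of members tested in brackets. Black points and grey diamonds are medians of edgeR log2 fold changes in ileum and colon, and open red symbols are medians of differences in log2(normalized reads + 50) within experiment 2 (circles) and experiment 3 (squares), for example -0.64, 0.54, -0.15 and -0.37 for the clustered histones.

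Markers of other cells did not pass either. Of 23 epithelial genes 0 were higher or lower at an unadjusted p under 0.05 (median 0.07), and the goblet cell, Paneth cell, stem and tuft cell, T and NK cell, B and plasma cell, dendritic cell, and fibroblast and smooth muscle lists likewise had 0. Of 20 enterocyte genes 1 (Mep1b, 5%) was higher, beside 3.77% of all genes, and the median was 0.35. Fabp6, the bile acid binding protein of ileal enterocytes, had 1787, 4955, 2051 and 16786 on day 8 and 12726, 20912, 22945 and 13644 on day 12, so 3 of the day 8 libraries lay below all of day 12 and replicate 4 lay among them (log2 fold change 1.16, SE 0.95, edgeR adjusted p = 0.84). This gene was named after its values were seen. The 11 tested fibroblast and smooth muscle genes all had a log2 fold change above 0, with a median of 0.60, which was -0.67 in experiment 2, above 0 in experiment 3 and 1.25 without the pair of libraries that stand apart. Their sums were 7902, 2923, 3805 and 6104 on day 8 and 577, 12534, 11455 and 10528 on day 12. Of 6 enteroendocrine genes 1 (Chgb) was lower, beside 2.95% of all genes, with sums of 133 to 975 and 63.4 to 494. Of 13 genes of neutrophils, mast cells and erythrocytes 1 (Retnlg) was higher, beside 3.77% of all genes. The part of these cells in the values above was not tested.

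The experiments matched only loosely. Within experiment 2 (2 libraries of each day) and experiment 3 (2 and 1), the differences in mean log2(normalized reads + 50) had the same sign in 6352 of 11842 genes (53.6%). Across genes they correlated with a Pearson coefficient of 0.12 and a Spearman coefficient of 0.12, where the genes share libraries and depth and are not independent. Of the 9 long-lived macrophage genes 7 were above 0 in both experiments and 0 below in both, and of the 64 histone genes 42 were below 0 in both and 5 above. Related lists were alike, with 17 of 24 macrophage identity genes above 0 in both and 1 below, and 7 of 11 class II genes above and 0 below. Of all 11842 genes, 3697 were above 0 in both and 2651 below. Experiment 3 holds replicate 4 of day 8, on which the histone counts depended, and only 1 library of day 12. The ribosomal genes had medians of 0.01 in experiment 2 and -0.49 in experiment 3. With experiment as a block, edgeR called 0 genes, and with the libraries of experiment 2 alone also 0.

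The same interval in the colon gave the same count. Between 3 day 8 and 4 day 12 colonic libraries 0 of 11842 genes (0%) passed, and 212 (1.79%) were higher and 117 (0.988%) lower at an unadjusted p under 0.05. The test of whether the day 8 to day 12 difference differed between ileum and colon called 0 genes and gave 496 (4.19%) at an unadjusted p under 0.05. Timd4 had 2, 1 and 1 reads in the colonic day 8 libraries, under the limit that 3 counts set, so no fold is given there. For Lpl the interaction was 1.43 on the log2 scale, with 1.59 in ileum and 0.16 in colon, and for Hist1h2ad -1.90, with -1.28 and 0.62, both without passing (edgeR adjusted p = 1). By medians the histones were at -0.64 in ileum and 0.54 in colon and the proliferation genes at -0.49 and 0.48. Other lists leaned alike in both segments, with the long-lived macrophage genes at 0.88 in ileum and 0.69 in colon and the inflammatory genes at 0.68 and 0.66. Lyve1 had a log2 fold change of 1.38 in ileum and 1.44 in colon (interaction -0.05). The lean of the long-lived list was thus not particular to the ileum. The interaction had an unadjusted p under 0.05 for 29 of 64 histone genes and 11 of 32 proliferation genes, beside 4.19% of all genes, and passed for 0. These counts use the same ileal day 8 libraries, with replicate 4 among them, and were not taken without it. The ileal count of lower histone genes fell to 4 without that library.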

How the data were processed

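Bulk RNA-seq of sorted ileal macrophages was analysed as raw read counts per gene. The authors prepared libraries by a derivation of MARS-seq from poly(A) RNA, aligned reads to mm9 with HISAT 0.1.6, kept uniquely mapping reads, and deposited HOMER counts of sense-strand reads over exons, without normalization and, as far as the sources used here state, without collapsing molecular identifiers. The version of HOMER is not given in the sources used here. The table holds 24411 genes, and its 26 libraries all matched samples. Colon day 8 replicate 1, which the study did not use, was left out. Normalized reads are counts per 10000000 of the mapped total in the header. The limit that 3 counts set lies at 4.44 to 11.3 normalized reads and covers counting error only.

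With edgeR 4.0.16 in R 4.3.3 (TMM, glmQLFit, glmQLFTest), 7 groups of 25 libraries were fitted on genes that reached 50 normalized reads in 3 or more libraries. Benjamini-Hochberg adjusted p under 0.05 passed. Standard errors were derived from the F statistic. Single genes were also compared by exact permutation (scipy 1.17.1). The step was tested on simulated data. DESeq2 1.42.0 and limma 3.58.1 were alternatives. Named genes were Timd4 and H2-Ab1, per direction 12 genes whose days did not overlap and whose group with more reads averaged 200 or more (largest fold changes among those that passed, filled by smallest unadjusted p), and per list the members that passed or the 3 highest by mean, of which a part is printed. Some list results are not reported here. The members and lists were chosen with earlier results of these data known. Promoters come from RefSeq. Replicates of a day did not agree within sampling noise (smallest chi-square per degree of freedom 15.7 over 12 pairs), so none was a duplicate. Replicate numbers follow the order of deposit and pair nothing. Experiment served as a block because titles carry dates, and deviations from day means in the 6 pairs of libraries of 1 experiment correlated between -0.16 and 0.21.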

Additional observations from a re-analysis of the deposited data

Results flagged for a closer look

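In 16 of 134 sets of 4 libraries examined, the highest or lowest library lay farther from the rest than a Dixon test at 95% allows. Chance gives about 1 in 20, the sets share libraries, and no cause was tested. Replicate 4 of day 8 was low for Timd4 (6.8, the others 43.5 to 46.1 normalized reads), for Maf (116, others 308 to 344) and for the summed long-lived macrophage list (829, others 1537 to 1598). Replicate 1 of day 12 was high for Gpr137b-ps (634, others 204 to 248) and for the summed pan-leukocyte (38841, others 12025 to 15883), TGF-beta axis (6989, others 4000 to 4194), inflammatory effector (44558, others 11167 to 13297), complement (91805, others 30211 to 35279) and lysosome (111671, others 39267 to 49206) lists. The same library was low for Oaz2 (220, others 318 to 335) and for the summed T and NK cell (555, others 1252 to 1383) and fibroblast and smooth muscle (577, others 10528 to 12534) lists. Among the rest, replicate 2 of day 12 was high for the enterocyte list (152030, others 46376 to 49018) and replicate 4 of day 12 for the B and plasma cell list (143402, others 21596 to 38505). Uqcc3 was low in replicate 1 of day 8 (450, others 502 to 509) and Snhg6 in replicate 4 of day 12 (253, others 356 to 368).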

How the results depend on the processing

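The count of genes that passed between the days was 0 under all 22 alternatives, and that of the interaction 0 under all 26. Genes at an unadjusted p under 0.05 were 447 higher and 349 lower. These moved to 257 and 204 with the 8 ileal libraries alone, to 149 and 118 with the ileal libraries of experiment 2 alone, and, in lower genes, to 113 with limma at a pseudocount of 1, 123 at 50 and 156 with scaling to library totals, where 645, 631 and 544 were higher. With experiment as a replicate block they were 158 and 67 in the 8 ileal libraries and 565 and 356 in all 25, and the block changed no adjusted call. In the 8 ileal libraries the block left 1 clustered histone gene and 0 ribosomal genes lower at an unadjusted p under 0.05, against 21 and 17 in the fit reported, and experiment 2 alone left 0 and 0. Leaving out 1 library gave 319 to 715 higher and 233 to 605 lower, the most without replicate 1 of day 8 (715 and 605). Timd4 was 0.71 to 2.31 and above 0 throughout. H2-Ab1 was -0.43 to 0.70 when libraries were left out, reversed at -0.18 without replicate 1 of day 12 and at -0.43 without that library and replicate 4 of day 8, an alternative chosen after seeing the data. The cause was not tested. The ratio of median distances between and within days was 1 and 0.948 with a pseudocount of 1. At this depth Timd4, with 2 to 116 reads, had a wide interval.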
